A study of Mus musculus with 10 samples.

Results

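The deposited H3K27ac list named YSM holds 892 regions of about 2 kb each, and 339 of them (38%) have their midpoint between protein-coding genes. These 339 regions are described here. They were chosen by 2 criteria: the authors' own test of YSM against MDM libraries, which placed them in the list, and a midpoint outside the annotated start and end of every one of 21883 protein-coding genes of the RefSeq table for GRCm38.p6. Both lists together hold 1320 regions, among them 212 MDM regions between genes and 553 YSM regions inside genes. The libraries were made by CUT&Tag, in which an antibody guides a transposase to a chromatin mark, from brain parenchymal macrophages sorted from Ms4a3Cre:R26-tdTomato mice labelled DR-3x, a treatment code that the labels leave unexplained. Cre driven by Ms4a3 marks cells descended from granulocyte-monocyte progenitors. There were 4 YSM and 4 MDM libraries of H3K27ac. The 2 groups share genotype, treatment label and tissue, and no label gives the age or number of the mice. The series title explains MDM as monocyte-derived macrophages. The labels use the abbreviation YSM without giving its full form.

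Acetylation of lysine 27 of histone H3 marks active promoters and enhancers. Enhancers are stretches of DNA that raise the transcription of a gene from a distance, often from the long intervals between genes, and they differ between cell types more than promoters do. In microglia, the resident macrophages of the brain, enhancers respond to signals of the tissue as well as to the factors of the macrophage lineage, among them PU.1. A distal enhancer need not act on the gene beside it, so the genes named here are neighbours and not targets. No value per library, fold change or p-value of a region was used here, and the sources used here do not state the direction of the lists. Listing for YSM is read here as higher H3K27ac in that group, an assumption behind every count. Neither the size of the difference nor its spread over libraries can be given. In libraries made from many cells, more cells with a mark and more of the mark per cell cannot be told apart.

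Transcription starts lay under 28 of the 339 regions (8.26%, exact Clopper-Pearson 95% interval 5.56 to 11.7). That interval takes regions as independent, but some overlap and share a start, so it is too narrow. The count rests on a RefSeq promoter table that holds 17491 protein-coding and 9533 lncRNA genes and is therefore not complete. The starts belonged to 14 protein-coding genes and 12 genes of long noncoding RNAs (lncRNAs). The 250 bases before 7 of these starts are shown because they are the promoters that the regions cover directly. Fscn1 and Tppp are genes of the microglia identity list, Nectin2 lies under 2 regions, and Olfm4 has a match to PU.1. The lncRNA Gm31003 lies in a run of 5 regions, Gm41484 under a region with one of the highest deposited scores, and Gm31726 in the interval with the most regions. Each is written 5′ to 3′ on the strand of its gene from RefSeq (GRCm38.p6), and capitals mark matches on either strand to the motifs spelled out below. Fscn1 is at chr5:142960105-142960354 (+), Tppp at chr13:74009169-74009418 (+), Nectin2 at chr7:19749574-19749823 (-), Olfm4 at chr14:80000052-80000301 (+), Gm31003 at chr14:114865004-114865253 (+), Gm41484 at chr16:87246694-87246943 (-) and Gm31726 at chr8:9157771-9158020 (-).
Fscn1: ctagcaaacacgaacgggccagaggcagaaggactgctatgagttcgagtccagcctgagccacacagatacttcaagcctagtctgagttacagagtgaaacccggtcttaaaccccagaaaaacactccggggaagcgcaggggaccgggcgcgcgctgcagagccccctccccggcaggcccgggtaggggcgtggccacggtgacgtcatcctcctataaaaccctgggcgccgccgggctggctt
Tppp: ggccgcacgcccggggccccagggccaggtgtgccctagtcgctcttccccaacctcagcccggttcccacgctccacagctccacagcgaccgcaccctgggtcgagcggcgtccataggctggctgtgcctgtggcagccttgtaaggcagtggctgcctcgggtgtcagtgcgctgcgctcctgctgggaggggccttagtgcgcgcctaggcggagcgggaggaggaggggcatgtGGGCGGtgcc
Nectin2: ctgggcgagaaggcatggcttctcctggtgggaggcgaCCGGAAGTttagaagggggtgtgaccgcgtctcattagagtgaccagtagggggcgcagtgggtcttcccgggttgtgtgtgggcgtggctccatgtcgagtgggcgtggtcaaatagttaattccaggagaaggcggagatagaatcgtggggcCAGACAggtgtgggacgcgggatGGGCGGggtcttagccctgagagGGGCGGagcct
Olfm4: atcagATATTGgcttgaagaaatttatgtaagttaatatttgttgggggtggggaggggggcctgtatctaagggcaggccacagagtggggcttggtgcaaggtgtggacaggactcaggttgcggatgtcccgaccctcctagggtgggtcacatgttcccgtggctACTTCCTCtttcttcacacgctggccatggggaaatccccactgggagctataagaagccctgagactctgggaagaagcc
Gm31003: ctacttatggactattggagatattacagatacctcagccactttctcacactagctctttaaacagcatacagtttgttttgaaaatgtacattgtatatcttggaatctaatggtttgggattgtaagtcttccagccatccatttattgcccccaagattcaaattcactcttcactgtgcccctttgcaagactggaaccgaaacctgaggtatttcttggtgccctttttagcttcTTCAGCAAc
Gm41484: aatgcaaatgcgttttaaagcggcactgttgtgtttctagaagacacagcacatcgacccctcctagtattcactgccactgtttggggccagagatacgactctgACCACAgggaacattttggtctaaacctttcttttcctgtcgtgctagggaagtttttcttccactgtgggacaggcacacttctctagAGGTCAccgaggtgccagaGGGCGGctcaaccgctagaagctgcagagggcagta
Gm31726: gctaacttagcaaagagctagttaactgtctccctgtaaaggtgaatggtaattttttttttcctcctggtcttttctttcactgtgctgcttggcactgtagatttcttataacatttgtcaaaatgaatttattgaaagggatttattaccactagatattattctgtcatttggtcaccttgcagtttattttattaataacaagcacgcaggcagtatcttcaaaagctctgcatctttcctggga

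The promoters differ in their content of CpG, a dinucleotide that is dense in promoters of widely used genes. Fscn1 has 18 CpG in 250 bases, Tppp 19 and Nectin2 16, whereas Olfm4 has 4. Among the lncRNAs, Gm41484 has 8, and Gm31003 and Gm31726 have 1 each. Over all 14 protein-coding windows the median was 16.5 (range 3 to 37), beside a median of 10 in 17491 such windows. Over the 12 lncRNA windows it was 7.5 (range 1 to 35), beside 3 in 9533. The letters GGGCGG, bound by KLF and SP factors, were in 9 of 14 protein-coding windows against 42.7% of all, and in 7 of 12 lncRNA windows against 15.1%. GAGGAAGT, a PU.1 form, was in 1 of 14 (Olfm4, starting 81 bases before the start, on the other strand) against 2.17% of all, and in 0 of 12 lncRNA windows against 2.88%. TTGCNNAA, for C/EBP factors, was in 1 of 14 against 9.14% and in 2 of 12 lncRNA windows against 10.3%. The AP-1 letters TGANTCA were in 0 of 14 against 6.18%, and in 1 of 12 against 8.09%. Other letters in capitals are CCGGAAGT (an ETS core), CAGACA (SMAD), TGTGGT (RUNX), AGGTCA (nuclear receptors) and ATATTG, an AT-rich motif. In that order they were in 1, 1, 0, 1 and 1 of the 14 protein-coding windows, beside 3.82%, 15.2%, 12.4%, 12.5% and 5.77% of all such windows. In the 12 lncRNA windows they were in 0, 2, 2, 2 and 0, beside 1.26%, 20.6%, 17.3%, 16.1% and 6.99%. The rest of the motifs searched have no match in the 7 printed windows. They were GGAATG (TEAD), in 2 of 14 against 11.6% and in 2 of 12 against 14.5%, and TGTTTAC (FOX), in 1 of 14 against 2.57% and in 1 of 12 against 3.98%. GCGTGGGCG (EGR) was in 1 of 14 against 0.72%, and TGCTGAC (MAF) in 1 of 12 lncRNA windows against 4.14%. EGR was in 0 of 12 against 0.21%, and MAF in 0 of 14 against 3.48%. The E-box CACGTG was in 0 of 14 against 6.65% and 0 of 12 against 4.92%, and CACGTGAC in 0 of 14 against 2.32% and 0 of 12 against 1.04%. Both strands were searched, CACGTG lies within CACGTGAC, GGGCGG can overlap other GC-rich motifs, and a match describes letters, not binding. The protein-coding and lncRNA windows are not separate sets. Those of Tppp and the lncRNA Gm15912 overlap and share a GGGCGG, and those of Tmem144 and the lncRNA Gm40073 overlap and share an AGGTCA.

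The protein-coding starts were mixed in function. Fscn1 encodes the actin-bundling protein fascin, Tppp a tubulin-binding protein, and Nectin2 an adhesion molecule of the immunoglobulin family. Prox1, a homeobox factor of lymphatic and neural development, had its start 26 bp from the midpoint of a region at chr1:190169853-190171853. Adamts1, a secreted metalloprotease, had its start 97 bp from the midpoint of chr16:85802210-85804210. Starts of the splicing regulator Nova1, the receptor phosphatase Ptprm, the unconventional myosin Myo6, the planar polarity gene Prickle1, the tetraspanin gene Tspan8, the T-box factor Tbx19, Tmem144 and Gm3248 were also covered. Gm3248 belongs to a group of similar gene models, where reads can be hard to place. At Nectin2, Tppp and Tmem144 the region covered a protein-coding start and an lncRNA start on the opposite strand, as far as the promoter table lists starts. Regions with midpoints 0.143 kb from the Magi1 end and 0.164 kb from the Klf12 end covered the lncRNA starts of Gm31661 and Gm41231. No protein-coding start was counted under these regions. Tppp and Gm15912 start 65 bp apart, Tmem144 and Gm40073 105 bp apart, and one of the 3 annotated starts of Gm34744 has the same position as that of Nectin2.

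Counted over runs, 23 of 249 YSM runs between genes (9.24%) covered a start, against 9 of 158 MDM runs between genes (5.7%). A run is a chain of regions of 1 set with at most 10 kb between neighbouring edges. The difference of 3.54 percentage points (normal 95% interval -1.56 to 8.64) did not pass a two-sided Fisher's exact test (p = 0.257, adjusted p = 0.432). That adjustment also covers a comparison with YSM runs inside genes, which is not given because gene ends, and so starts, decided on which side of the membership rule a region fell. The comparison was chosen after the tables were seen, and intervals cover counting error only. The promoter table lacked the nearest gene of 25.4% of YSM and 27.5% of MDM regions within 10 kb of a gene end. Between 10 and 100 kb it lacked that of 35.3% and 17.5%, and beyond 100 kb that of 27% and 15.2%. Starts can thus be missed to unlike extents in the lists, and the counts are minima.

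The regions ranged in distance from 0.017 kb, beside Tppp, to 1725 kb, with a median of 61.5 kb from the midpoint to the nearest protein-coding gene end. Every distance to a gene is taken from the midpoint of a region about 2 kb wide, so the closest regions overlap the gene. Within 10 kb lay 63 regions (18.6%, median 1.55 kb), between 10 and 100 kb lay 139 (41%, median 37.9 kb), and beyond 100 kb lay 137 (40.4%, median 228 kb). All the bases between genes are spread over these classes as 15.4%, 37.2% and 47.3%, so the regions were somewhat denser near genes. Their density was 24.6 regions per 100 Mb within 10 kb, 22.5 between 10 and 100 kb and 17.4 beyond. The MDM regions between genes, in the same order, had densities of 15.6, 12.9 and 11.7 per 100 Mb. These densities are descriptions, since neighbouring regions are not independent.

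**Figure D1:**
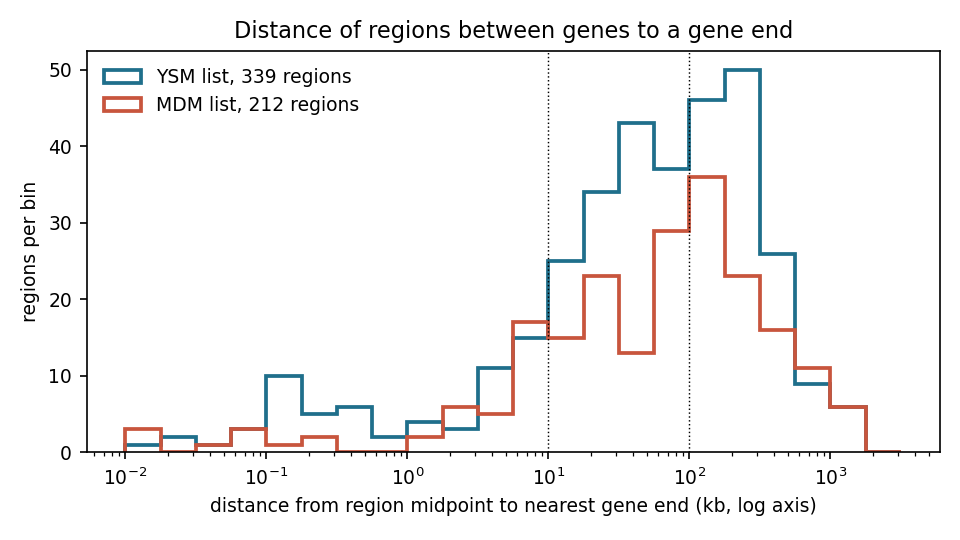
Number of regions per bin against distance (kb, log axis) between its midpoint and the closest protein-coding gene end, for 339 YSM and 212 MDM regions between genes; dotted lines stand at 10 and 100 kb. Most regions of both lists lie beyond 10 kb, and the YSM median is 61.5 kb.

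No difference between the lists was detected in any distance class. Of 249 YSM runs, 55 (22.1%) had their closest region within 10 kb of a gene, against 37 of 158 MDM runs (23.4%), which is -1.33 points (-9.71 to 7.05, Fisher's exact p = 0.808). Between 10 and 100 kb the shares were 40.2% and 36.1% (4.08 points, -5.57 to 13.7, Fisher's exact p = 0.465). Beyond 100 kb they were 37.8% and 40.5% (-2.76 points, -12.5 to 6.98, Fisher's exact p = 0.603). Every adjusted p over the 3 classes was 0.808. Without the immunoglobulin heavy chain locus, which holds MDM regions, the last difference turned to 3.03 points (Fisher's exact p = 0.588).

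**Figure D2:**
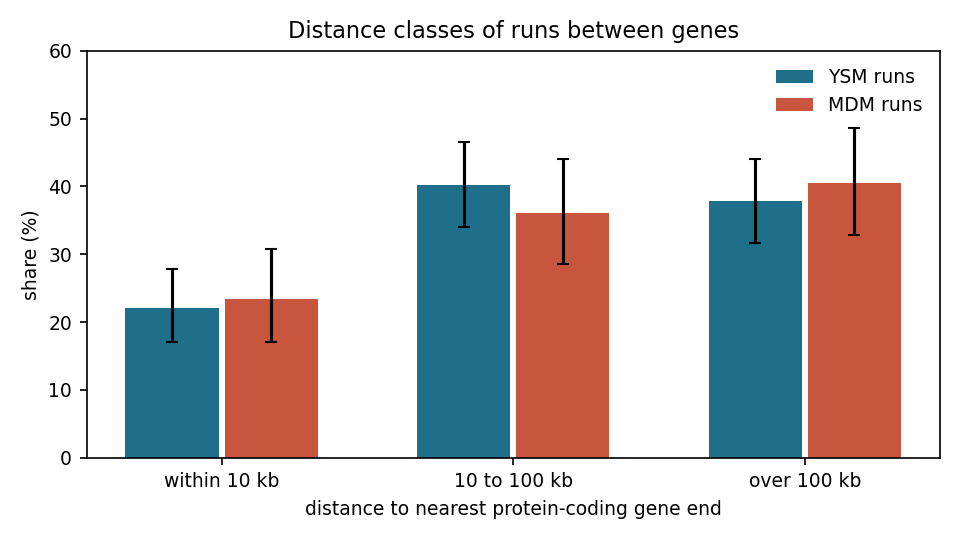
Share of runs (%) whose closest region lies within 10 kb, 10 to 100 kb or over 100 kb from a protein-coding gene end, for 249 YSM and 158 MDM runs between genes; error bars are exact 95% binomial intervals. The intervals of the lists overlap in all 3 classes, with 37.8% and 40.5% beyond 100 kb.

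Where the promoter table gave the strand of the nearest gene, 30 regions within 10 kb were nearest to its 5′ end and 17 to its 3′ end, with 16 unknown. The MDM regions within 10 kb had 21, 8 and 11. Between 10 and 100 kb the counts were 53 and 37 (49 unknown), and beyond 100 kb 54 and 46 (37 unknown) for YSM regions, and no test was made. A start was covered by 19 of the 63 regions within 10 kb, by 3 of 139 between 10 and 100 kb, and by 6 of 137 beyond. All 9 regions over a start that lay more than 10 kb from a protein-coding gene covered lncRNA starts. In all, 65 regions (19.2%) had their midpoint inside an lncRNA gene, as did 31 of 212 MDM regions (14.6%). The share of all bases between protein-coding genes that lies in lncRNA genes was not computed, so no excess can be read from these counts.

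The 5 midpoints closest to a gene end lay 17 bp from Tppp, 24 bp from the olfactory receptor gene Olfr156, 26 bp from Prox1, 49 bp from Nova1 and 67 bp from Ppp1r1a. The last encodes an inhibitor of protein phosphatase 1. On the other side of the membership rule, the YSM region at chr15:8966949-8968949 had its midpoint on an end base of Ranbp3l (0 bp), and one at chr9:102833922-102835922 lay 2 bp inside Ryk, a Wnt receptor gene. At the other extreme, 6 regions lay over 1 Mb from any gene end. A pair of overlapping regions (chr2:47087724-47089724 and chr2:47087935-47089935) lay 1725 kb from Acvr2a, an activin receptor gene, and 1971 kb from Zeb2, a repressor that shapes macrophage identity. One region (chr7:53432461-53434461) lay 1402 kb from Luzp2 and 1418 kb from 1700015G11Rik. Of 2 regions between the protocadherin genes Pcdh20 and Pcdh9, the farther lay 1355 kb from Pcdh20 (chr14:89825784-89827784). Another region lay 1337 kb from the protocadherin gene Pcdh7, with G6pd2 on its other side (chr5:59469050-59471050).

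The regions fell in 179 of the 19694 intervals between genes, of which 110 held 1 region and 69 held 2 or more. Overlapping regions count separately here, and whether the regions gather in intervals was not tested. The 10 intervals with 5 or more regions held 71 regions (20.9%). Intervals with a YSM region had a median length of 232 kb, against 17.3 kb over all intervals, but longer intervals also offer more room: 81.1% of the regions and 78.5% of all bases between genes lay in intervals over 100 kb. The MDM share was 78.3%. MDM regions lay in 128 of the 19694 intervals, and 2 intervals held regions of both lists, too few to read anything from. Between the Hedgehog receptor gene Ptch1 and Ercc6l2, 1 YSM region lay 76 kb from the closest of 3 MDM regions. Between Triqk and Runx1t1, which encodes a transcriptional corepressor, 1 YSM region lay 511 kb from 1 MDM region.

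The interval with the most regions, on chromosome 8 between Arglu1, a coactivator and splicing gene, and Fam155a, which encodes a partner of a neuronal sodium leak channel, is 515 kb long and held 11 regions in 5 runs. A run of 4 spanned 8951331 to 8965938, 241 to 254 kb from Fam155a, and a second run of 4 spanned 8982494 to 8995670, 211 to 223 kb from it. Single regions followed at 198, 48.5 and 20.5 kb, and the second of these covered the start of Gm31726. No YSM or MDM region lay inside Arglu1 or Fam155a.

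The interval between Sall1, the transcription factor that defines microglial identity, and the transcription factor gene Tox3 held 9 regions over 351 kb. Sall1 is read on the minus strand and its outermost start faces this interval, so the regions lie upstream of the gene. Single regions lay at 11.8, 90.4, 119 and 228 kb from Sall1, the first 2 of them inside an lncRNA gene. The remaining 5 formed a run of 22.8 kb, 340 to 360 kb away and 843 kb from Tox3. Inside Sall1 itself the list held 3 regions. The second Sall gene, Sall3, had 2 regions between 27.2 and 34.5 kb away (nearest chr18:81013225-81015225).

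Beside the metalloprotease gene Adamts16, 9 regions stood in 4 groups at 5.23 kb, 42.1 to 42.7 kb, 61.1 to 62.2 kb and 91.9 to 93.5 kb. The homeobox gene Irx1 on the far side was at least 1023 kb away. Between Camk1g, a calmodulin-dependent kinase gene, and the semaphorin receptor gene Plxna2, 7 regions lay in a stretch of 79.2 kb, 429 to 506 kb upstream of Camk1g. No listed region lay inside either gene. Between the neuronal RNA-binding gene Celf4 and Pik3c3, a lipid kinase gene of autophagy, 7 regions were scattered in 6 runs from 41.3 to 626 kb from Celf4. Beside Csmd3, 6 regions ran from 0.408 to 301 kb, with Trps1, a zinc finger repressor gene, on the far side.

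Rxrg, the retinoid X receptor gamma gene, had 4 of the 6 regions of its interval in a run 7.83 to 14.1 kb upstream, and Lrrc52, an ion channel subunit gene, was nearest to the other 2. Sox11, a transcription factor gene of neural development, had a single run of 5 regions, 22 to 39.7 kb beyond its 3′ end, with the nucleotide kinase gene Cmpk2 815 kb away. All 5 lay inside an lncRNA gene. Gpc5, a glypican gene, had a run of 5 at 208 to 227 kb upstream, whose first 2 regions cover the start of Gm31003, and Slitrk5 lay 3182 kb away. Arrdc4, an arrestin family gene, had 6 regions 121 to 144 kb away, with Fam169b on the other side.

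Tcim, a small regulator of Wnt signalling, had 5 regions between 0.222 and 70.2 kb, on both sides of the gene, 4 of them in a run that reaches 17.4 kb from it. Zmat4 and Ido2, an enzyme gene of tryptophan breakdown, are the neighbours beyond it. The remaining run of 4 lay 44.1 to 50.3 kb from Psd2 and 51.9 kb or more from Cxxc5, a zinc finger gene, on chromosome 18. Of the 10 genes nearest to the most regions, namely Fam155a, Adamts16, Sall1, Celf4, Camk1g, Csmd3, Arrdc4, Tcim, Sox11 and Gpc5, none was nearest to an MDM region between genes. Among all 186 nearest genes 1 was (0.538%), close to the 127 of all 21883 protein-coding genes (0.58%).

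**Figure D3:**
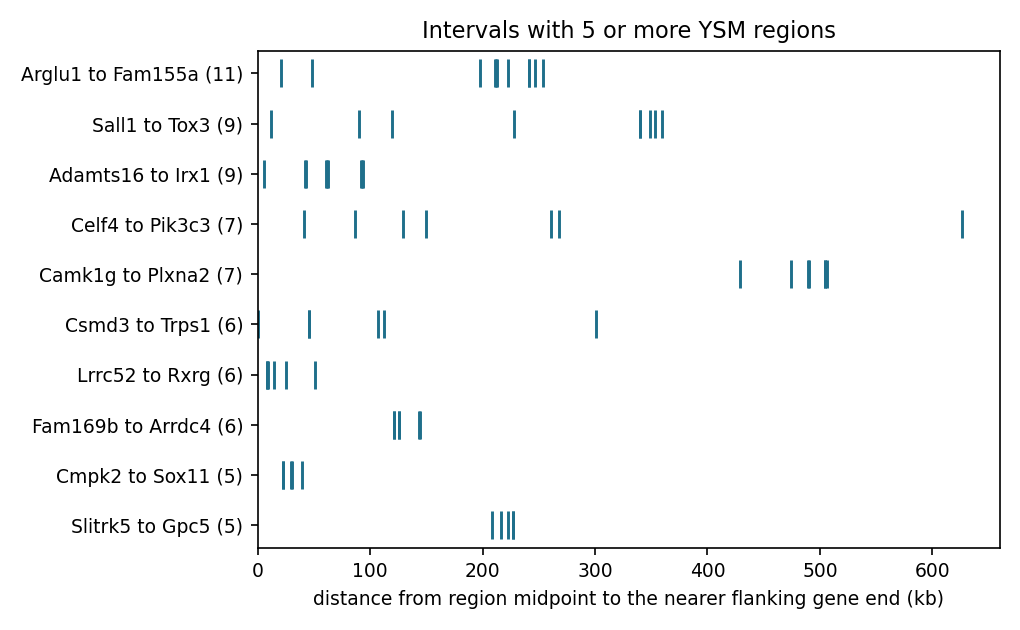
Position of every YSM region in the 10 intervals with 5 or more regions, as distance from its midpoint to the nearer flanking gene end (kb); each tick is 1 region and the number in brackets is the count. Regions near Adamts16, Rxrg and Sox11 lie within 100 kb, whereas those near Camk1g lie between 429 and 506 kb.

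Most runs were single regions: 189 of 249 (75.9%), with 42 runs of 2, 9 of 3, 6 of 4 and 3 of 5. The share with 2 or more, 24.1% (exact 95% interval 18.9 to 29.9), differed little from 24.7% of MDM runs between genes, by -0.587 points (-9.16 to 7.98, Fisher's exact p = 0.906). It was 25% among YSM runs inside genes, or -0.904 points apart (-7.7 to 5.9, Fisher's exact p = 0.852), and both adjusted p were 0.906. Runs were made within each set, so the membership rule cuts a chain that crosses a gene end. Such cuts can change run size in both YSM sets, so nothing is read from the comparison with runs inside genes. Some joining was overlap, as 112 of 339 regions (33%) overlapped another of the set. Another YSM region, inside or outside a gene, lay within 10 kb of 47.6% of the regions nearest to genes, 46% of those at 10 to 100 kb and 51.8% of those beyond 100 kb.

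**Figure D4:**
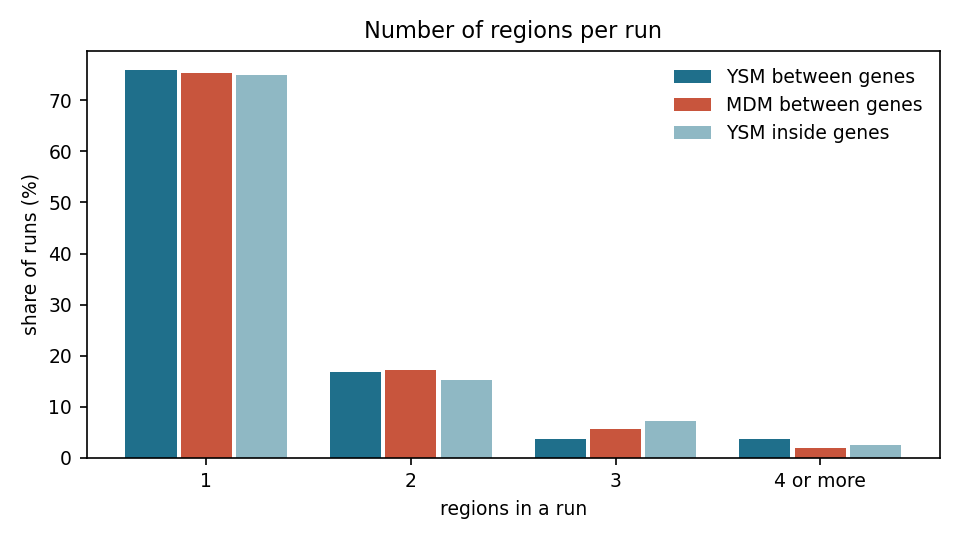
Share of runs (%) by the number of regions they hold, for YSM and MDM regions between genes and YSM regions inside genes. Single regions make up 75.9% of YSM runs between genes, beside 75.3% of MDM runs and 75% of YSM runs inside genes.

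Some genes beside the regions carried a YSM region of their own. For 82 of 339 regions (24.2%) the nearest gene also held a YSM region inside it, and for 2 (0.59%) it held an MDM region. For the 212 MDM regions between genes the order was turned, with 4 (1.89%) and 24 (11.3%). Of the 186 genes nearest to a YSM region between genes, 37 (19.9%) held a YSM region inside and 2 (1.08%) an MDM region. Over all 21883 protein-coding genes 348 (1.59%) held a YSM region inside and 146 (0.667%) an MDM region. These shares are descriptions with no test, gene length was not matched, and the YSM list is the longer one. Of the 63 regions within 10 kb of a gene end, 21 (33.3%) had a YSM region inside a gene within 10 kb. Whether such neighbours are parts of a single stretch that crosses a gene end was not tested.

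In all, 352 of 21883 protein-coding genes (1.61%) flanked a YSM region between genes on either side, and 243 (1.11%) an MDM region. Genes beside an interval over 100 kb flanked one more often, 261 of 4745 (5.5%), so each list below is given with the share of its members beside such an interval. Several lists, that of microglia identity above all, were drawn up with YSM genes of these data already known, so their counts are no independent evidence.

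Of 56 microglia identity genes, 7 flanked YSM regions (12.5%) and 2 flanked MDM regions, and 20 (35.7%) lie beside a long interval. Besides Sall1, Sall3, Csmd3, Fscn1 and Tppp they were the glutamate transporter gene Slc1a3, with a region at 91.1 kb (chr15:8800879-8802879), and Nav3, 384 kb from a pair of regions to which Syt1 is nearer. Of 92 macrophage transcription factors, 8 flanked YSM regions (8.7%) and 1 an MDM region, and 53.3% lie beside a long interval. Beyond Sall1, Sall3 and Rxrg they were Klf12, Fli1, Foxo1, Nfib and Zeb2. Klf12 lay 0.164 kb from the midpoint of a region at chr14:100285055-100287055 and 176 kb from that of a second. Fli1, an ETS factor, lay at 13 kb (chr9:32408167-32410167), Foxo1 at 379 kb and Nfib at 546 kb or more. Other genes were nearer to these regions, namely Kcnj1, Cog6 and Mpdz in that order. The region at Klf12 also covers the start of the lncRNA Gm41231. Klf12 encodes a repressor of the KLF family.

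The border-associated macrophage list had 2 of 20 genes beside YSM regions (30% beside a long interval) and 1 beside an MDM region. The same 2 were the YSM members of the lysosome and phagocytosis list (2 of 49, 18.4% beside a long interval, 0 beside MDM regions). Marco, a scavenger receptor gene, had 4 regions, 2 at 5.57 and 12.8 kb on the side of its start and 2 at 23 and 24.8 kb beyond its 3′ end. The nearest is at chr1:120509597-120511597. Timd4, a phosphatidylserine receptor gene, had 1 region 4.02 kb beyond its 3′ end (chr11:46847356-46849356). Of 47 inflammatory genes (23.4% beside a long interval), 2 flanked YSM regions and 0 MDM regions. Cxcl13, a chemokine that attracts B cells, had a run of 3 regions 14.2 to 21.8 kb upstream (nearest chr5:95941725-95943725). Il10, an anti-inflammatory cytokine gene, had 1 region at 27.8 kb, to which Mapkapk2 is nearer. Of 45 TGF-beta signalling genes (37.8% beside a long interval), 1 flanked a YSM region, the distant Acvr2a, and 2 flanked MDM regions.

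Cell adhesion and junction genes had 9 of 70 members beside YSM regions (12.9%) and 3 beside MDM regions, with 70% beside a long interval. The junction scaffold gene Magi1 lay 0.143 kb from the midpoint of a region, Nectin2 0.132 kb and Ptprm 0.234 kb. The cadherin gene Cdh8 lay at 28.3 kb. Cdh5, the endothelial cadherin gene, had 4 regions at 136 to 182 kb, and Cadm1 1 at 144 kb. Axon guidance genes had 5 of 66 beside YSM regions (7.58%) and 1 beside an MDM region, with 48.5% beside a long interval. The guidance receptor gene Robo2 lay 16.9 kb from a region, whereas Efnb2, Epha4, Plxna2 and Robo1 were each 165 kb or more away.

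Among markers of other brain cells, 5 of 29 neuron genes flanked YSM regions (17.2%) and 0 MDM regions, and 65.5% of that list lies beside a long interval. They were Celf4, Nova1 with 3 regions from 0.049 to 50.9 kb, Snap25 with 2 at 33.4 and 34.6 kb, Grin2a at 66.6 kb and Syt1 at 286 kb. The astrocyte list had 1 of 16 (Slc1a3, which the microglia list also holds), the oligodendrocyte list 1 of 20 (Mog, at 5.47 kb) and the endothelial and mural list 1 of 21 (Cdh5). Beside MDM regions they had 2, 0 and 0, and beside a long interval 50%, 30% and 28.6%. The B cell list had 1 of 13 (Ebf1, at 530 kb or more, with Clint1 nearer). The list of disease-associated microglia had 1 of 24 (Fabp5, at 116 kb, with Pag1 nearer). Beside MDM regions these had 1 and 0, and beside a long interval 38.5% and 20.8%. Engrafted macrophage and monocyte genes (50), interferon-induced genes (30), neutrophil and granulocyte markers (17) and T and NK cell markers (23) had 0 YSM members, beside 2, 0, 1 and 0 MDM members. Of these lists 24%, 10%, 5.88% and 30.4% lie beside a long interval. Whether other cells contributed to any region was not tested.

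By chromosome, the runs were densest on chromosome 8, with 35.9 runs per 100 Mb between genes, chromosome 18 with 33 and chromosome 1 with 28.1. Chromosome 8 held 43 regions, 20 of them in the intervals of Fam155a and Sall1. The X chromosome had 1 run, or 0.8 per 100 Mb, and 0 MDM runs. Against MDM runs, chromosome 15 had the lowest p, with 16 of 249 YSM and 1 of 158 MDM runs (Fisher's exact p = 0.00386), which did not pass after adjustment over 20 chromosomes (adjusted p = 0.0771). This comparison was also chosen after the tables were seen.

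**Figure D5:**
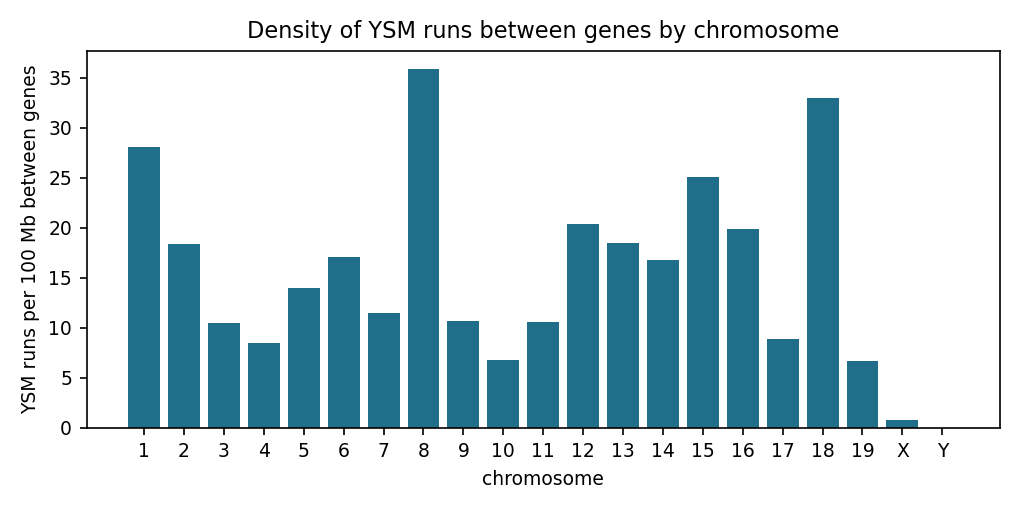
YSM runs between genes per 100 Mb of sequence between protein-coding genes, by chromosome. Chromosomes 8, 18 and 1 stand highest, at 35.9, 33 and 28.1, and X has 0.8.

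The authors' deposited table gives a score of unstated meaning, above 1 in 8 of the 339 regions and in 1 of the 212 MDM regions between genes. The 5 highest in it were 71 at a region 306 kb from Clint1 and 538 kb from Ebf1 (chr11:45545188-45547188), 41 between Pag1 and Fabp5 (chr3:9895371-9897371), 34 between Tmem144 and Gask1b (chr3:79851892-79853892), 27 over the start of Gm41484 between Adamts5 and N6amt1 (chr16:87245312-87247312) and 17 between Nr2f1 and Arrdc3 (chr13:78235758-78237758).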

How the data were processed

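Both region lists were deposited by the authors after a test between 4 YSM and 4 MDM libraries of H3K27ac. Trimmomatic 0.39, Bowtie2 2.2.5, Picard and HOMER were used with build mm10 (GRCm38), per the submitters' processing notes. Neither the threshold nor the scaling of that test was given here, and depth is unknown. Besides positions, the deposited lists hold a name, a strand and a score, the last with no stated meaning. The number that ends the name was not interpreted here. It was 4 or more in 52 of 339 YSM regions between genes (15.3%) and in 114 of 212 MDM regions between genes (53.8%). Among YSM regions inside genes it was so in 96 of 553 (17.4%), and no test was made. The 1 YSM and 1 MDM library named for H3K27me3 were not analysed here. Whether each library came from its own mice is not stated.

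Starts were shifted by 1 to count from 1. Distances were measured between the midpoint and the closest protein-coding gene end on chromosomes 1 to 19, X and Y. Exons, introns and UTRs were not separated. Runs join regions of 1 set with at most 10 kb between edges, and a run takes the class of its closest region. Shares were tested by two-sided Fisher's exact tests with Benjamini-Hochberg adjustment and a threshold of 0.05, and carry exact Clopper-Pearson 95% intervals (SciPy 1.17.1, pandas 2.3.3, Python 3.11.15). These tests compare lists of regions, not animals. Bases between genes include assembly gaps. Transcription starts came from a promoter table of 250 bases before and 50 after each start. The outermost start listed there for a gene was used for motifs and CpG. For some genes, among them Gm31003, Nova1 and Tspan8, it was not the annotated end of the gene. Distance classes and runs were tested on simulated data. Named genes are both neighbours of the 10 runs with the most regions, the 10 genes nearest to the most regions, members of the gene lists within 100 kb, and neighbours of the 5 farthest and 5 closest regions and of the 5 highest scores. Genes over a covered start, list members beyond 100 kb and neighbours of other intervals were named after their values were seen. Members and lists were chosen with earlier results of these data known.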

Additional observations from a re-analysis of the deposited data

How the results depend on the processing

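No paired analysis was possible because neither list gives a value for a single library, so leaving out libraries was not possible either. Motifs within the regions were not compared, since that needs a genome. No difference in distance class or run size passed under any of the alternatives run, and adjusted p stayed at 0.638 or above, so a change of sign is not a change of call. In percentage points of YSM over MDM runs, the class within 10 kb turned from -1.33 to 2.61 with runs joined over 50 kb and to 3 with class borders of 5 and 50 kb. With genes of every type the middle class turned to -0.542 and the class beyond 100 kb to 1.72. Without the immunoglobulin heavy chain locus the class beyond 100 kb turned to 3.03. The share of runs with 2 or more regions turned from -0.587 to 0.426 with runs of overlapping regions and to 0.485 without that locus. The cause was not tested. For covered starts, counting regions alone, an alternative chosen after seeing the data, left the difference to MDM at 3.54 points (Fisher's exact test, adjusted p = 0.122). Genes flanking a YSM region numbered 352, fewer by construction with the nearest gene only (186) or within 100 kb (199). Within 100 kb, microglia identity had 6 genes in place of 7, transcription factors 5 in place of 8, adhesion 4 in place of 9 and axon guidance 1 in place of 5. With the nearest gene only, these lists had 6, 4, 7 and 2 genes in the same order.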
